A study of Mus musculus with 2 samples.

Results

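TGF-beta signalling in melanocytes was described through 10 of the 32285 genes counted in the data. The genes were listed by name, with earlier results of these data known. The ligand genes were Tgfb1 and Tgfb2, and the receptor genes Tgfbr1 and Tgfbr2. The signal transducers were Smad2, Smad3 and Smad4, and the repressors Ski, Skil and Tgif1. All 10 were present in both count matrices. They were read in melanocyte cells, defined as cells with at least 1 Dct UMI, fewer than 3 Krt10 and Krt14 UMIs together and under 5% mitochondrial UMIs, with more than 10000 UMIs in early anagen or more than 5000 in the bulb. A UMI is a molecular tag that counts 1 captured transcript once.

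The data were 2 libraries of droplet single-cell RNA sequencing, 1 per condition, from the dorsal skin of mice that carry Dct-rtTA; tetO-H2B-GFP, in which doxycycline switches on a green nuclear reporter in cells that use the Dct promoter. Both were sorted for that reporter, although some cells with few or no Dct UMIs were still present, and both pooled the cells of 4 mice given doxycycline chow for 4 days. The early-anagen library, labelled activated McSC (melanocyte stem cell), came from mice depilated at 8 weeks of age and taken 4 days later, when the follicle re-enters growth. The bulb library, labelled as differentiated melanocytes, came from hair bulbs dissected out of full-growth (anagen VI) follicles of 5-week-old mice. The early-anagen cells were freed with trypsin, and the bulb cells with EDTA, collagenase and dispase. The early-anagen library was made with the v3 and the bulb library with the v2 reagent kit. Condition, kit, depth, age, depilation, dissection and dissociation therefore cannot be told apart. With no replicate library there is no test of a difference between the conditions, and cells were not treated as replicates. Ratios are given with the exact 95% interval for a pair of Poisson totals, and shares with a Clopper-Pearson interval; both cover counting error only.

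The early-anagen library held 2785 melanocyte cells of 3464 that passed the quality limits, with a median of 24528 UMIs and 4684 genes. The bulb library held 3734 of 3774, with a median of 14286.5 UMIs and 3407 genes. All 8 melanocyte markers had UMIs in both, summing to 24638 CPM (counts per 1000000 UMIs) in early anagen and 67431 CPM in the bulb. The 8 keratinocyte markers summed to 48.7 and 55.0 CPM, with Krt15 and Krt1 at 0 UMIs in the bulb, against 35548 CPM in the 58 keratinocyte cells of the early-anagen library, which had at least 20 keratin and under 10 Dct UMIs. In early anagen and the bulb, the highest of these markers were Krt17 (4.25 and 30.3 CPM), Sfn (5.07 and 13.9 CPM) and Lgals7 (28.3 and 4.92 CPM). The 6 fibroblast markers summed to 1.32 and 0.823 CPM, the 3 endothelial markers to 0.211 and 0.0358 CPM, the 3 Schwann cell markers to 0.264 and 0.394 CPM, and the 6 immune markers to 17.9 and 7.59 CPM. In the bulb, Col1a1, Col3a1, Lum, Pdgfra, Cdh5, Ptprc, Cd207 and Cd3e were at 0 UMIs. Most of the immune sum was Cd74 in early anagen (14.2 CPM, and 0.412 CPM in the bulb) and Lyz2 in the bulb (7.09 CPM, and 2.14 CPM in early anagen). Between early anagen and the bulb, Dcn (0.158 and 0.376 CPM) and Ncmap (0.145 and 0.358 CPM) were higher in the bulb, and Col1a2 (0.964 and 0.447 CPM) was lower. The part of these traces in the results was not tested. No cell barcode was shared by the melanocyte cells of the 2 libraries, and 1 was shared among all barcodes.

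TGF-beta ligands are secreted in a latent form and, once activated, bind the type II receptor TGFBR2, which then switches on the type I receptor TGFBR1. TGFBR1 phosphorylates SMAD2 and SMAD3, which join SMAD4 and act in the nucleus, while SKI, SKIL (SnoN) and TGIF1 hold back the target genes of these complexes. In the hair follicle, TGF-beta from the niche is known for promoting the return of melanocyte stem cells to quiescence and for lowering pigment gene expression.

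The level of Smad3 differed by Oca2 UMIs in thinned cells, but not detectably with all UMIs. The sequences before the gene starts are shown for Smad3 and for the pair of ligand genes, whose levels differed in opposite directions between the libraries. They are the 250 bases before a transcript start in RefSeq on GRCm38.p6, where Tgfb1 spans chr7:25687002-25705077, Tgfb2 chr1:186622787-186709697 and Smad3 chr9:63646766-63757994, and the Tgfb2 start lies inside that span. Capitals mark the SMAD core GTCT on either strand (AGAC on the other) and the E-box CACGTG, a class of site that MITF, the main melanocyte transcription factor, can bind.
Tgfb1, chr7:25686752-25687001, plus strand: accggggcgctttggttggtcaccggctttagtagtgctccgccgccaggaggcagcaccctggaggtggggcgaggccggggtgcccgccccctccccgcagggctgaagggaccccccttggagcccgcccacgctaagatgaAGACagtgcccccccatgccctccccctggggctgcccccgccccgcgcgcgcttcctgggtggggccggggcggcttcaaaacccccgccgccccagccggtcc
Tgfb2, chr1:186705990-186706239, minus strand: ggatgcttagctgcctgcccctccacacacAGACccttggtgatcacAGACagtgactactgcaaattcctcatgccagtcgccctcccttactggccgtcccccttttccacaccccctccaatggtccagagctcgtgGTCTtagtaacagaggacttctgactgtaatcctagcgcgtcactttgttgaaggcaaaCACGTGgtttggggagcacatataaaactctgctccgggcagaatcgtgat
Smad3, chr9:63757995-63758244, minus strand: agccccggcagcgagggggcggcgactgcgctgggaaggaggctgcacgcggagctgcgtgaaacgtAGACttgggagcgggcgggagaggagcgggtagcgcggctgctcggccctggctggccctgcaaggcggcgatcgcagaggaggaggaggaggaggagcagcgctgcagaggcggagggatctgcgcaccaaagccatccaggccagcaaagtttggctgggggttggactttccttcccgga
The Tgfb1 window held 1 SMAD core and was 75.2% G or C. The Tgfb2 window held 3 SMAD cores and 1 CACGTG, was 53.6% G or C, and had 167 bases in exons of the noncoding gene Gm29491. The Smad3 window held 1 SMAD core and was 69.2% G or C. Among the 32851 windows of this length in the table, 82.9% held a SMAD core and 6.02% a CACGTG, and the median G or C content was 52.4%. Another E-box, CATGTG, was searched on both strands and was in none of these 3 windows, against 12.3% of all windows. The core CTGTCA, which TGIF proteins bind, was searched in the same way and was in none of the 3 either, against 15.9% of all windows. These letters describe the windows and are not measured binding sites.

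The first question was how the pathway differed between early-anagen McSCs and mature bulb melanocytes. Of the 8 genes abundant enough to compare, 4 were at least 2-fold lower in the bulb, beside 25.8% of all 7298 genes compared. Smad4 had the largest difference among these 8 genes, at 9.0-fold lower, followed by Ski at 5.20-fold, Tgif1 at 3.52-fold and Smad2 at 2.14-fold. Under some other scalings Smad2 was within 2-fold. Skil, the relative of Ski, differed by 1.10-fold, and the direction of that difference depended on the scaling. Tgfb1 was 1.51-fold higher in the bulb.

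**Figure D1:**
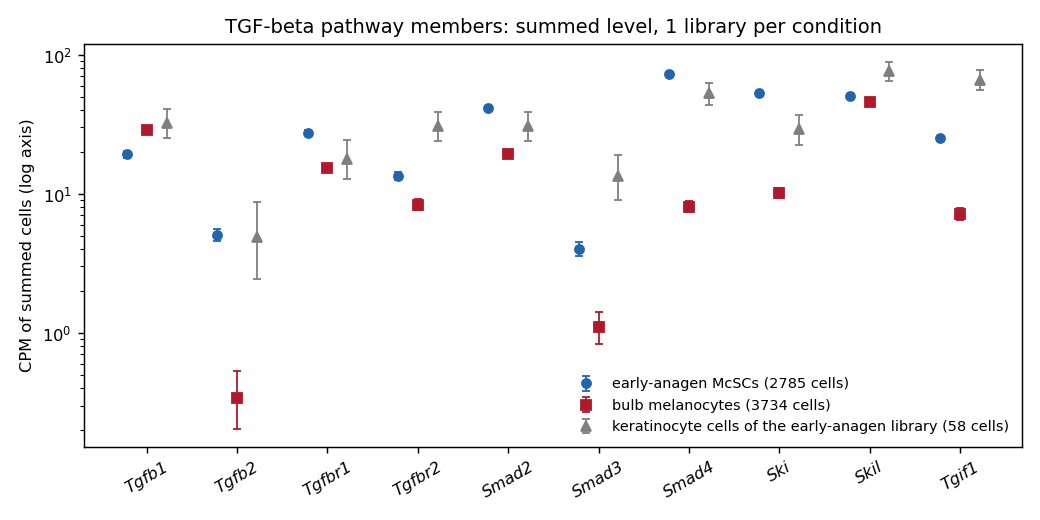
Level of each gene as CPM over summed cells (log axis) in early-anagen McSCs (circles), bulb melanocytes (squares) and the 58 keratinocyte cells of the early-anagen library (triangles), with exact 95% Poisson intervals that cover counting error only. Smad4 was at 72.8 CPM in early anagen and 8.09 CPM in the bulb, while Skil was at 50.8 and 46.0 CPM.

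The ligand genes went in opposite directions. Tgfb1 was at 19.2 CPM in early anagen and 28.8 CPM in the bulb, from 1451 and 1612 UMIs, a log2 ratio of 0.59 (0.49 to 0.69). Tgfb2 was at 5.05 CPM in early anagen and 0.340 CPM in the bulb, from 382 and 19 UMIs, a log2 ratio of -3.89 (-4.64 to -3.23). Tgfb2 was thus close to absent from bulb melanocytes at this depth, although it stayed under the limit of 10 CPM, taken as the mean of both libraries, that a gene needed to enter the counts of genes. In 1 random thinning of every cell to 5000 UMIs, Tgfb1 was at 23.2 CPM in early anagen and 28.5 CPM in the bulb, a log2 ratio of 0.30 (0.10 to 0.50). Thinning to 10000 UMIs gave 0.54 (0.39 to 0.69), and the mean of the CPM of each cell, which counts cells equally, gave 0.55. The ratio of Tgfb1 to Tgfb2 UMIs, which does not depend on the scaling of a library, was 3.80 (3.39 to 4.26) in early anagen and 84.8 (54.2 to 141) in the bulb.

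Both receptor genes were lower in the bulb by similar amounts. Tgfbr1, the type I receptor kinase, was at 27.5 CPM in early anagen and 15.2 CPM in the bulb, a log2 ratio of -0.85 (-0.97 to -0.74). Tgfbr2, which binds the ligand, was at 13.4 and 8.32 CPM, a log2 ratio of -0.69 (-0.85 to -0.53). The ratio of Tgfbr1 to Tgfbr2 UMIs was 2.05 (1.90 to 2.21) in early anagen and 1.83 (1.63 to 2.05) in the bulb, so the intervals overlapped, and it was 0.580 (0.383 to 0.868) in keratinocyte cells.

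The Smad genes differed in size of change. Smad2 was at 41.1 CPM in early anagen and 19.2 CPM in the bulb, a log2 ratio of -1.10 (-1.20 to -0.998). Smad3 was at 3.99 and 1.09 CPM, from 302 and 61 UMIs, a log2 ratio of -1.87 (-2.29 to -1.47), and was also under the 10 CPM limit. Smad4, the partner that both receptor-activated Smads share, was at 72.8 and 8.09 CPM, from 5511 and 452 UMIs, a log2 ratio of -3.17 (-3.31 to -3.03). Only 3.49% of the 7298 genes compared had a lower ratio than Smad4. The keratinocyte cells of the early-anagen library, made with the same kit as its McSCs, held Smad4 at 52.6 CPM (43.6 to 63.0), within 1.5-fold of the McSC level. The bulb library held 1 cell of this kind, so the part of the kit in the Smad4 difference was not tested.

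Among the repressors, Ski and Skil parted. Ski was at 52.9 CPM in early anagen and 10.2 CPM in the bulb, a log2 ratio of -2.38 (-2.51 to -2.25). Skil was at 50.8 and 46.0 CPM, a log2 ratio of -0.14 (-0.21 to -0.07) that turned to 0.17 with TMM scaling and to 0.28 with scaling by the median of ratios. Tgif1, a homeodomain repressor that binds the Smad complex, was at 25.0 and 7.10 CPM, a log2 ratio of -1.82 (-1.98 to -1.66). The Skil to Ski ratio of UMIs was 0.961 (0.919 to 1.0) in early anagen, 4.53 (4.13 to 4.97) in the bulb and 2.62 (1.95 to 3.54) in keratinocyte cells. The Skil to Smad4 ratio was 0.698 (0.669 to 0.727) in early anagen and 5.69 (5.15 to 6.30) in the bulb. The balance of counted UMIs among these genes was therefore different in the 2 libraries whichever scaling is used. The part of the kit in that balance was not tested.

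Of the 8 genes at 10 CPM or more, 4 were at least 2-fold lower in the bulb (Smad2, Smad4, Ski and Tgif1) and 0 at least 2-fold higher. Of all 7298 genes compared, 25.8% were at least 2-fold lower and 16.4% at least 2-fold higher. The median log2 ratio was -0.98 over the 8 genes and -0.11 over all genes compared. TMM scaling raised each log2 ratio by 0.31 and left 3 genes at least 2-fold lower, with 24.5% of all genes higher and 18.9% lower. Scaling by the median of ratios raised each by 0.42, with 3 genes lower and Tgfb1 higher, and left 27.9% of all genes higher and 16.9% lower.

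Cell cycle and activation differed between the libraries, since a Mki67 or Top2a UMI was found at 10000 UMIs in 35.7% of McSCs but in 2.10% of bulb melanocytes. Among cells without such a UMI the log2 ratio of Smad2 was -0.90, under the 2-fold limit, and that of Smad4 was -3.27. The immediate early genes Fos, Fosb, Jun, Egr1, Ier2 and Atf3, which respond to stress and dissociation, summed to 1723 CPM in early anagen and 1244 CPM in the bulb at 10000 UMIs. They did not all differ in the same direction. With all UMIs, Fos (374 and 640 CPM) and Ier2 (50.8 and 56.2 CPM) were higher in the bulb. Jun (718 and 479 CPM), Fosb (109 and 34.5 CPM), Egr1 (36.6 and 5.96 CPM) and Atf3 (244 and 24.4 CPM) were lower there. Within the cells below the median of these genes in each library, the log2 ratio was -0.98 for Smad2, -3.10 for Smad4 and -0.00301 (-0.15 to 0.15) for Skil, which turns with the scaling as given above.

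**Figure D2:**
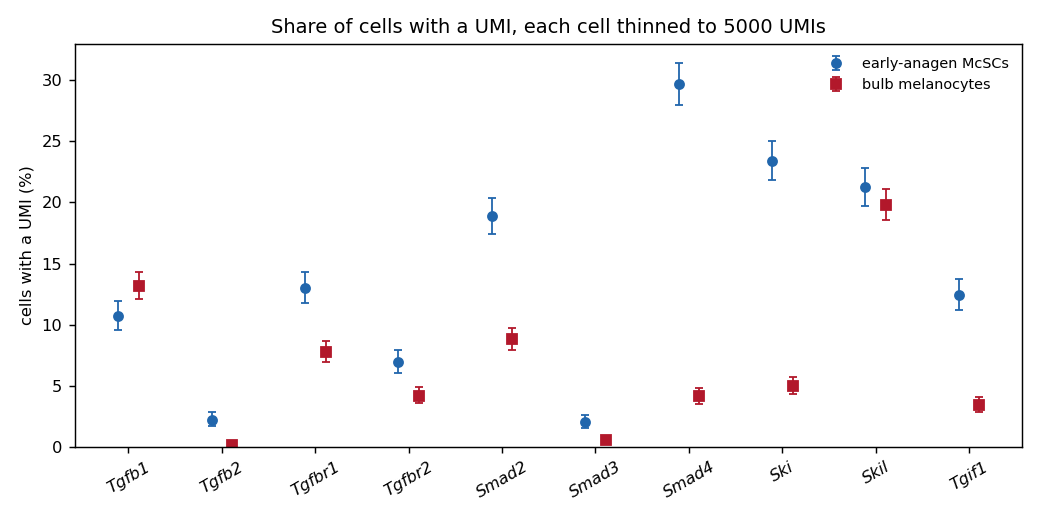
Share of cells with at least 1 UMI of each gene after each cell was thinned to 5000 UMIs, in early-anagen McSCs (circles, 2785 cells) and bulb melanocytes (squares, 3734 cells), with Clopper-Pearson 95% intervals. The share for Smad4 was 29.7% in early anagen and 4.15% in the bulb, and the Skil intervals overlapped.

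Shares of single cells with a UMI had the same order. At such low counts a share largely follows from the level, so it is not separate evidence. With all UMIs, a Smad4 UMI was found in 79.1% of McSCs and in 11% of bulb melanocytes. At an equal 5000 UMIs a cell, the shares were 29.7% (28.0 to 31.4) and 4.15% (3.53 to 4.84). For Ski they were 23.4% (21.8 to 25.0) and 4.98% (4.31 to 5.73), and for Tgif1 12.4% (11.2 to 13.7) and 3.45% (2.89 to 4.09). For Skil, the thinned shares were 21.2% (19.7 to 22.8) and 19.8% (18.5 to 21.1), a difference not detectable at this depth. Tgfb1 was found in 10.7% (9.58 to 11.9) of early-anagen and 13.2% (12.1 to 14.3) of bulb cells, and Tgfb2 in 2.23% (1.71 to 2.84) and 0.161% (0.0590 to 0.349). The remaining thinned shares were 13.0% and 7.79% for Tgfbr1, 6.93% and 4.18% for Tgfbr2, 18.9% and 8.81% for Smad2, and 2.05% and 0.562% for Smad3. No cell type in these libraries is known to lack these widely used genes, so a background share from free RNA could not be set beside them, and its part in the low levels was not tested.

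Joint detection of partner genes depended strongly on depth and was higher in early anagen with all UMIs and at 5000 UMIs. For the receptor pair and for Smad2 with Smad4, joint detection at 10000 UMIs was near what the share of each gene alone gives. This was not worked out at the other depths. At 10000 UMIs, Tgfbr1 and Tgfbr2 were found together in 93 early-anagen cells, beside 92.7 for independent genes, and in 40 bulb cells, beside 37.4. Smad2 and Smad4 were found together in 463 early-anagen cells, beside 446, and in 41 bulb cells, beside 45.3. Some other pairs differed more. Smad4 and Ski were found together in 559 early-anagen cells, beside 540, and in 39 bulb cells, beside 24.6. With all UMIs, a UMI of Smad4 together with one of Smad2 or Smad3 was found in 53.3% (51.4 to 55.2) of early-anagen cells and 2.92% (2.40 to 3.51) of bulb cells, and both receptors together in 14.7% (13.4 to 16.1) and 2.38% (1.92 to 2.92). At 5000 UMIs, Smad4 with Smad2 or Smad3 was found in 165 of 2785 early-anagen cells, 5.92% (5.08 to 6.87), and in 10 of 3734 bulb cells, 0.268% (0.128 to 0.492). Both receptors were found together in 27 early-anagen cells, 0.969% (0.640 to 1.41), and in 13 bulb cells, 0.348% (0.186 to 0.595). At least 1 of the 3 repressors had a UMI in 47.0% (45.1 to 48.8) of early-anagen and 26.3% (24.9 to 27.7) of bulb cells. With all UMIs, a cell held a median of 4 of the 10 genes in early anagen and 2 in the bulb, and 0.934% and 15.0% of cells held none.

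How evenly the transcripts were spread over cells was read from the variance of the UMIs over their mean, which is 1 for random sampling from equal cells. At 5000 UMIs a cell, this value for Skil was 1.18 in early anagen and 1.15 in the bulb. It was 1.15 for Tgif1 and 1.31 for Tgfb2 in early anagen, and 1.04 and 0.999 in the bulb. For the other genes it lay between 0.971 and 1.06 in both libraries. Skil was thus the one gene above 1.10 in both at this depth. Its mean in the bulb was 0.236 UMIs a cell, beside 0.0420 for Smad4, 0.0503 for Ski and 0.0359 for Tgif1. Uneven spread is hard to see at such low means. At 10000 UMIs in early anagen, the value was 1.29 for Skil, 1.59 for Tgfb2, 1.21 for Tgif1, 1.17 for Smad4 and 1.15 for Ski. Tgfb2 reached 7 UMIs in 1 early-anagen cell at 10000 UMIs, and 3 of its 125 positive cells held 8.92% of its 157 UMIs. Smad4 had 3 or more UMIs in 136 early-anagen cells at that depth and in 0 of 3288 bulb cells, whereas Skil had 3 or more in 88 and 86. Over pairs of the 10 genes, the correlation of UMIs across cells at 10000 UMIs ran from -0.0184 to 0.0831 in 2785 early-anagen cells and from -0.0269 to 0.0662 in 3288 bulb cells, values too weak to order the pairs.

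The second question was whether the pathway followed the cell cycle in early anagen. Each of the 8 genes compared was inside 1.5-fold between cycling and non-cycling McSCs, although several had intervals that left out 0. All cells were thinned to 10000 UMIs, and the 993 cells with a Mki67 or Top2a UMI, markers of proliferation and of late cell cycle, were set against the 1792 without. Their median depth before thinning was 34875 and 21039 UMIs, and their keratinocyte markers summed to 63.6 and 60.7 CPM. In this comparison 0 of 8 genes were at least 1.5-fold higher, beside 7.8% of 7453 genes, and 0 were at least 1.5-fold lower, beside 3.29%. With 8 genes, a count of 0 cannot be set apart from those shares. The median log2 ratio was -0.25 over the 8 genes and -0.02 over all genes.

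**Figure D3:**
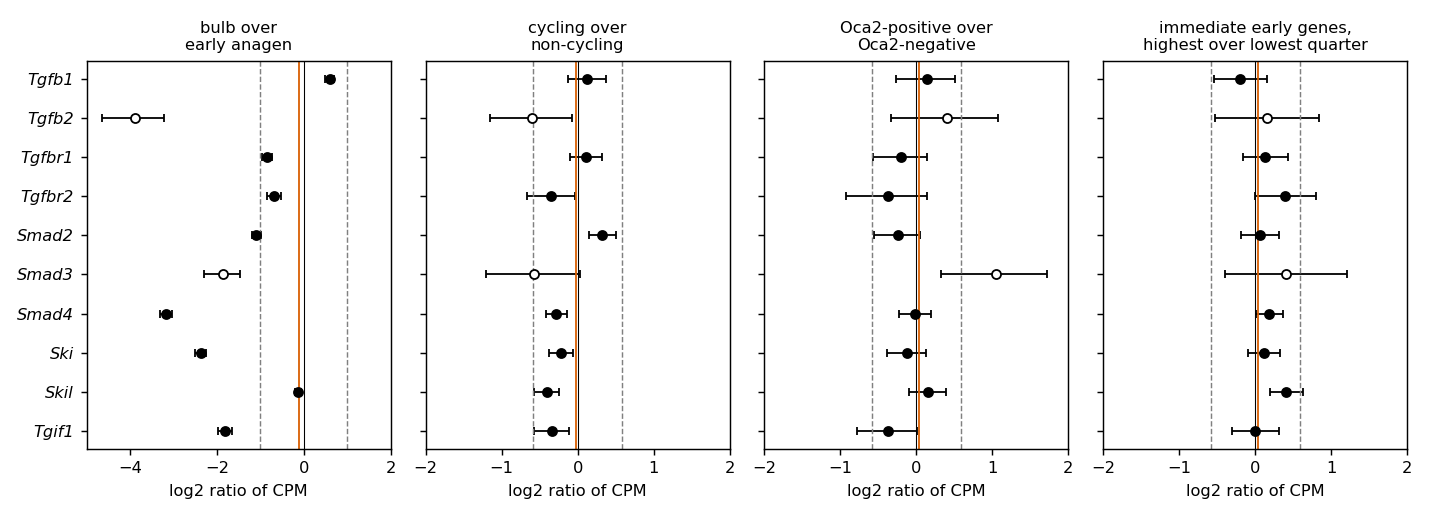
Log2 ratio of CPM for each gene with its exact 95% interval in the 4 comparisons; open points mark genes under 10 CPM, the orange line the median of all genes compared, and dashed lines the 2-fold or 1.5-fold limit. Smad4, Ski, Tgif1 and Smad2 lay below -1 in the bulb comparison, while no filled point passed a dashed line within early anagen; Skil, at -0.14, turned to 0.17 with TMM and to 0.28 with median-of-ratios scaling.

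Smad2 was the one gene with an interval above 0, with 45.5 CPM when a Mki67 or Top2a UMI was present and 36.3 CPM when not. Its log2 ratio was 0.33 (0.15 to 0.50), but 0.12 (-0.06 to 0.29) with another random seed for the thinning. With all UMIs it was 0.22 (0.12 to 0.33). Smad4 was at 65.0 and 78.9 CPM, a log2 ratio of -0.28 (-0.42 to -0.14). Skil was at 42.6 and 56.4 CPM, a log2 ratio of -0.40 (-0.57 to -0.24). It was -0.19 (-0.36 to -0.03) with the other seed and -0.35 (-0.44 to -0.26) with all UMIs. The intervals of Ski (-0.22), Tgif1 (-0.34), Tgfbr2 (-0.35) and Tgfb2 (-0.60) were also below 0, and those of Tgfb1, Tgfbr1 and Smad3 held 0.

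Tgfbr2 was lower in cells with many Mki67 and Top2a UMIs. It was at 15.9 CPM (14.1 to 17.9) in cells without a Mki67 or Top2a UMI, 14.9 CPM (11.9 to 18.4) in the 576 cells with 1 to 5, and 9.11 CPM (6.45 to 12.5) in the 417 cells with over 5. Against cells with none, the log2 ratio was -0.78 in cells with at least 3 such UMIs, past the 1.5-fold limit. Between the cells highest and lowest in a set of other cell cycle genes it was -0.49 (-0.86 to -0.12), within the limit. Smad3 was at 4.80 CPM (3.84 to 5.93), 4.34 CPM (2.81 to 6.41) and 1.68 CPM (0.675 to 3.46) in the same groups, the last from 7 UMIs. Tgfbr1 stayed between 28.0 and 30.6 CPM in all 3.

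**Figure D4:**
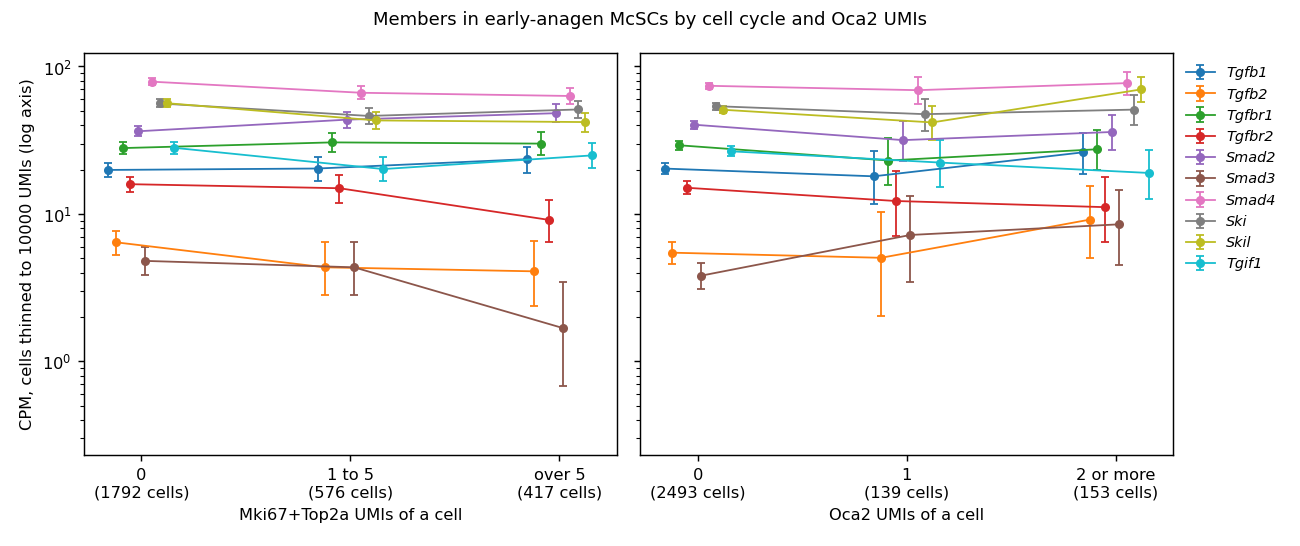
CPM of each gene (log axis) in early-anagen McSCs thinned to 10000 UMIs, grouped by Mki67+Top2a UMIs (left) and by Oca2 UMIs (right), with exact 95% Poisson intervals. Tgfbr2 was at 9.11 CPM in cells with over 5 Mki67+Top2a UMIs against 15.9 CPM with none, and Smad4 was at 69.1 CPM or more in every Oca2 group.

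The third question was whether the pathway differed in the early-anagen McSCs that had begun to transcribe Oca2, a melanosome channel gene used late in pigmentation. After thinning to 10000 UMIs, 292 McSCs (10.5%) held an Oca2 UMI (Oca2-positive) and were set against the 2493 that held none (Oca2-negative). With all UMIs, 454 of the 2785 McSCs (16.3%) held an Oca2 UMI. Some cells counted as Oca2-negative thus carried Oca2 UMIs that the thinning removed. Of the 58 keratinocyte cells, thinned alike, 0 held one, which allows a share of up to 6.16% by the Clopper-Pearson interval. Of the 8 genes compared, 0 were at least 1.5-fold higher, beside 5.28% of 7427 genes, and 0 were at least 1.5-fold lower, beside 5.29%. The median log2 ratio was -0.16 over the 8 genes and 0.03 over all genes. The median depth was 27409 and 24119 UMIs before thinning.

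Smad4 and Ski, which had the largest differences in the bulb among the 8 genes compared, had intervals by Oca2 in early anagen that held 0. Smad4 was at 73.3 CPM in Oca2-positive and 74.0 CPM in Oca2-negative cells, a log2 ratio of -0.01 (-0.22 to 0.19), and at 77.1 CPM (63.8 to 92.4) in the 153 cells with 2 or more Oca2 UMIs. Ski was at 49.3 and 53.8 CPM, a log2 ratio of -0.13 (-0.38 to 0.12). Between the Oca2-positive cells of the bulb and those of early anagen, thinned alike, the log2 ratio was -3.11 (-3.38 to -2.85) for Smad4 and -0.79 (-1.10 to -0.47) for Smad2. The 148 bulb cells without an Oca2 UMI after this thinning held Smad4 at 4.05 CPM (1.49 to 8.82), beside 8.47 CPM (7.48 to 9.55) in the 3140 with one.

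Smad3, which was under the 10 CPM limit, was the 1 gene whose interval left out 0 in this thinning. It was at 7.88 CPM in Oca2-positive and 3.81 CPM in Oca2-negative cells, a log2 ratio of 1.05 (0.32 to 1.72) from 23 and 95 UMIs. With all UMIs of each cell its log2 ratio was 0.34 (-0.07 to 0.74), so the difference was not detectable in that setting, and with another random seed it was 0.82 (0.02 to 1.55). The ratios of Skil and Tgif1 also varied with the random seed of the thinning and with the use of all UMIs. Their intervals held 0 in the main thinning but left it out with the other seed and with all UMIs. Skil was at 56.5 and 50.9 CPM, a log2 ratio of 0.15 (-0.09 to 0.39), 0.34 (0.12 to 0.56) with another random seed and 0.41 (0.30 to 0.52) with all UMIs. In the 153 cells with 2 or more Oca2 UMIs, Skil was at 69.9 CPM (57.3 to 84.5). Tgif1 was at 20.5 and 26.6 CPM, a log2 ratio of -0.37 (-0.78 to 0.01), -0.55 (-0.74 to -0.35) with all UMIs and -0.83 (-1.28 to -0.40) with another random seed, which put it past the 1.5-fold limit.

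Because SKIL and TGIF1 are also known as genes of fast induction, the early-anagen cells were ranked by the summed UMIs of immediate early genes. The 696 cells with the highest sum (4176 CPM of these genes) were set against the 696 with the lowest (322 CPM). Of 8 genes, 0 were at least 1.5-fold higher, beside 3.71% of 7462 genes, and 0 were at least 1.5-fold lower, beside 1.34%. Skil was at 59.2 CPM in the highest and 44.5 CPM in the lowest cells, a log2 ratio of 0.41 (0.19 to 0.63). Smad4 was at 79.3 and 69.8 CPM, a log2 ratio of 0.18 (0.01 to 0.36), and Tgif1 was at 25.3 CPM in both. Among bulb cells ranked the same way, with 822 at each end, Skil was at 42.2 and 48.3 CPM, a log2 ratio of -0.19 (-0.41 to 0.02).

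**Figure D5:**
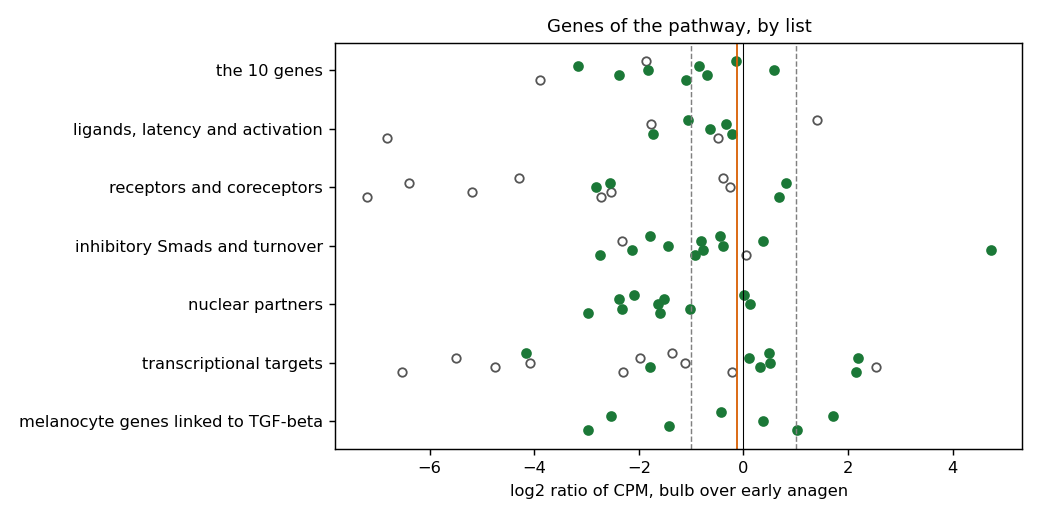
Log2 ratio of CPM, bulb over early anagen, for the 10 genes and for genes of 6 pathway lists; filled points had a mean of at least 10 CPM, open points less, the orange line is the median of all genes compared (-0.11) and dashed lines mark 2-fold. Genes at 0 UMIs in a library are not drawn; Smad6 is the point at 4.74, and Skil among the 10 genes turned from -0.14 to 0.17 with TMM and to 0.28 with median-of-ratios scaling.

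The other genes of the pathway were read from 6 lists in the bulb comparison. Among 11 nuclear partners, the coactivators, corepressors and transcription factors that work with Smads, 8 of 10 compared were at least 2-fold lower in the bulb and 0 higher, with a median log2 ratio of -1.62, beside 25.8% lower and 16.4% higher among all genes compared. They included Sp1 (30.3 CPM in early anagen, 3.88 CPM in the bulb, log2 ratio -2.96), the acetyltransferase genes Crebbp (80.2 and 16.0 CPM, -2.33) and Ep300 (42.5 and 9.99 CPM, -2.09), and the zinc finger repressor gene Zeb1 (30.3 and 5.80 CPM, -2.39). Rlim, a ubiquitin ligase gene, was at 63.7 and 20.5 CPM (-1.63), and Sin3a, a corepressor scaffold gene, at 17.1 and 5.65 CPM (-1.60). Hdac1, at 90.2 and 91.1 CPM, and Tgif2, at 21.2 and 23.1 CPM, were within 2-fold.

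Inhibitory Smads and turnover genes gave 1 gene higher and 4 lower of 11 compared, with a median of -0.81, beside 16.4% higher and 25.8% lower among all genes, so the counts were not far from those shares. Smad6, which mainly restrains BMP signals, was at 1.44 CPM in early anagen and 38.5 CPM in the bulb, a log2 ratio of 4.74 (4.46 to 5.03), the highest of the listed genes compared. Smad7, the inhibitory Smad that blocks TGFBR1, was at 36.6 and 47.6 CPM, a log2 ratio of 0.38 (0.30 to 0.46). Trim33, a ubiquitin ligase for SMAD4, was at 38.5 and 5.74 CPM (-2.75), Smurf2 at 32.1 and 7.30 CPM (-2.14), the SMAD anchor gene Zfyve9 at 25.4 and 7.37 CPM (-1.78) and Pmepa1, an induced inhibitor, at 197 and 72.6 CPM (-1.44).

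Of 14 ligand, latency and activation genes, 5 were compared, 2 were lower (the protease gene Furin, 57.0 and 17.3 CPM, -1.72, and the integrin gene Itgb1, 320 and 153 CPM, -1.06) and 0 higher, with a median of -0.64. Among all genes compared, 25.8% were lower and 16.4% higher, the background for this list and for the receptor list below. Lists with 5 and 4 genes compared are too short to set their counts apart from those shares. Itgb8, which encodes a subunit of an integrin that activates latent TGF-beta, had 250 UMIs in early anagen and 0 in the bulb, at least 61.5-fold lower against a floor of 3 counts per library. Ltbp4, a latent TGF-beta binding protein gene, had 117 and 0 UMIs, at least 28.8-fold lower. Of 12 receptor and coreceptor genes, 4 were compared, 2 were lower (the coreceptor gene Eng, 49.1 and 6.98 CPM, -2.82, and the activin receptor gene Acvr2a, 22.4 and 3.81 CPM, -2.55) and 0 at least 2-fold higher, with a median of -0.93. The remaining genes compared, the decoy receptor gene Bambi (37.5 and 60.3 CPM) and Fkbp1a (368 and 646 CPM), were higher in the bulb but within 2-fold. TMM and median-of-ratios scaling add 0.31 and 0.42 to every log2 ratio. Either would put Fkbp1a past 2-fold higher and Itgb1 within 2-fold, and the latter scaling would put Bambi past 2-fold higher as well. Itgb8, Ltbp4 and the target Ccn2 were under the 10 CPM limit and were named for their 0 after their values were seen. Hdac1, Tgif2, Smad7, Bambi and Fkbp1a were likewise named after their values were seen, for lying within 2-fold.

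Of 20 transcriptional targets, 8 were compared, 2 were higher and 2 lower in the bulb, with a median of 0.41, counts near the 16.4% higher and 25.8% lower among all genes. Cdkn1a, a cell cycle inhibitor gene, was at 43.0 and 195 CPM (2.18) and Tsc22d1 at 82.6 and 366 CPM (2.15), while Gadd45b was at 157 and 8.79 CPM (-4.16) and Timp1 at 28.7 and 8.36 CPM (-1.78). Ccn2, a matrix protein gene, had 1116 UMIs in early anagen and 0 in the bulb, at least 275-fold lower. Of 8 melanocyte genes linked to TGF-beta, 7 were compared, 3 were lower (Cdkn1b -2.98, the survival gene Bcl2 -2.53, and Pax3 -1.41) and 2 higher (Tyr 1.71 and Dct 1.03, the latter used to choose the cells), with a median of -0.44.

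By Oca2 in early anagen, 2 of 11 inhibitory Smad and turnover genes were at least 1.5-fold higher and 0 lower. Among all 7427 genes compared, 5.28% were higher and 5.29% lower, which is the background for each list in this comparison. Smad7 was at 64.4 CPM in Oca2-positive and 32.4 CPM in Oca2-negative cells, a log2 ratio of 0.99 (0.75 to 1.22), and the ubiquitin ligase gene Nedd4l at 80.5 and 48.7 CPM, 0.73 (0.52 to 0.93). Of 7 receptors, Acvr1c was higher (33.2 and 10.5 CPM, 1.67) and Eng (-0.71) and Cd109 (-0.65), a coreceptor that restrains the signal, were lower. Of 11 targets compared, 0 were higher and 4 lower: Ccn2 (5.82 and 15.1 CPM, -1.38), Timp1 (12.7 and 31.3 CPM, -1.30), Fn1 (7.19 and 14.0 CPM, -0.96) and Cdkn1a (31.2 and 47.9 CPM, -0.62). With all UMIs, Ccn2 was found in 10.2% and Fn1 in 9.37% of McSCs, so both lean on few of the 292 Oca2-positive cells. The values of all lists within early anagen come from 1 random thinning. Other seeds and all UMIs were run for the 10 genes only. None of 10 nuclear partners and none of 5 ligand and latency genes passed 1.5-fold. Of the melanocyte genes, Tyr (1.21), Mitf (0.71) and Dct (0.67) were higher and Bcl2 (-0.63) lower.

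By cell cycle, where 7.8% of all genes were higher and 3.29% lower, Acvr1c (8.36 and 15.3 CPM, -0.88) and Fn1 (8.06 and 16.2 CPM, -1.01) were lower in cycling cells, and none of the other listed genes compared was at least 1.5-fold higher. By immediate early genes, where 3.71% of all genes were higher and 1.34% lower, 4 of 10 targets were at least 1.5-fold higher in the highest cells (Ccn1 1.81, Junb 1.72, Ccn2 1.27 and Gadd45b 0.77), together with the decoy receptor gene Bambi (0.99), Ltbp3 (0.65) and Acvr2a (0.62), while Acvr1c was lower (-0.88). Junb is itself an immediate early gene, left out of the ranking because it is in the target list. Genes induced along with the ranked genes are higher in the highest cells by the choice of cells. Whether the difference in these targets had to do with TGF-beta was not tested.

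The patterns of Tgfbr2, Skil and Tgif1 were compared with those of 5623 genes over 8 groups: early-anagen McSCs split by cell cycle and Oca2 UMIs into 6, bulb melanocytes and keratinocyte cells, all at 10000 UMIs. The groups differ in size from 19 to 3288 cells but count alike, and 7 of them share 1 library. Tgfbr2 was at 0 CPM in the group of 19 cells, Oca2-positive with over 5 Mki67+Top2a UMIs, so its r values lean on a small group. By Pearson's r of log2(CPM + 1), Tgfbr2 was most like Pkib (0.997), Thumpd1 (0.980) and Yrdc (0.978), Skil most like Tmem63b (0.966), Golga4 (0.951) and Rab22a (0.942), and Tgif1 most like Cast (0.985), Rnd3 (0.984) and Rbms1 (0.981). Tgfbr2, Skil and Tgif1 were each highest in keratinocyte cells, at 37.9, 75.9 and 75.9 CPM, and in the bulb they were at 8.33, 45.9 and 7.36 CPM.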

How the data were processed

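The authors deposited counts of UMIs, unnormalised, for every gene in every barcode, made with Cell Ranger 6.0.1 on mm10 (per the submitters' processing notes). The counts were used as deposited: levels are UMIs summed over cells per 1000000 (CPM), and ratios are log2 of 2 CPM. Depth was 75718468 UMIs in the early-anagen and 55883067 in the bulb melanocyte cells, and with 1 library per condition no test was run. Cells were thinned at random (seed 1) to 10000 UMIs within early anagen and to 5000 for shares of cells. In counts of genes, a gene needed a mean of 10 CPM over both groups. Python 3.11.15 (numpy 2.4.6, scipy 1.17.1) was used, and edgeR 4.0.16 gave the TMM factors only. The interval and thinning code was tested on simulated data. No doublet caller was run; leaving out the top 5% of cells by UMIs was an alternative. The 10 genes and all lists were chosen with earlier results of these data known. Named genes were the 10, up to 6 a list past the fold by size, and the 3 most like genes, of at least 20 CPM on average, for Tgfbr2, Skil and Tgif1. Sequences and positions were from RefSeq on GRCm38.p6, which had windows for 7 of the 10 genes. Ratios of UMIs between genes were compared among groups and not read as relative levels of the genes. Whether the 2 kits capture these genes differently was not tested.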

Additional observations from a re-analysis of the deposited data

How the results depend on the processing

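The count of genes at least 2-fold apart between bulb and early anagen, 4, was 3 to 6 under all 15 alternatives, always with Smad4, Ski and Tgif1 lower. 5 genes were lower with the total taken without mitochondrial, ribosomal protein and pigmentation genes (Tgfbr1 added) and 6 with no minimum CPM (Tgfb2 and Smad3 added). The log2 ratio of Skil, -0.14, turned to 0.17 with TMM and 0.28 with median-of-ratios scaling, which add 0.31 and 0.42 to every log2 ratio. In the immediate early split, Skil turned from 0.41 to -0.19 when bulb cells were used. Within early anagen the count of genes past 1.5-fold, 0, became 1 in 3 alternatives by cell cycle (1 with at least 3 Mki67+Top2a UMIs and 1 with over 5, Tgfbr2 in both, and 1 with no minimum CPM, Tgfb2) and 1 in 2 alternatives by Oca2 (1 with another random seed, Tgif1, and 1 with no minimum CPM, Smad3). It stayed 0 in all 4 alternatives by immediate early genes. The comparisons that used only non-cycling, Oca2-positive or low immediate early cells of both libraries, all cells at 10000 UMIs, the immediate early split of bulb cells, and over 5 Mki67+Top2a UMIs were chosen after the data were seen.

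Each condition had 1 library, so leaving out a replicate was not run. No paired analysis was possible because each group had 1 sample. Smad3 and Tgfb2, with 61 and 19 UMIs in the bulb, are limited by depth, as are the thinned Oca2 groups.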
